A study of Saccharomyces cerevisiae with 9 samples.

Results

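The small subunit processome genes described here are 47 genes of the budding yeast Saccharomyces cerevisiae, out of 5928 genes in the deposited table, chosen by systematic name from a list of UTP genes and other assembly factors of the small ribosomal subunit. Earlier results of these data were known when the set was chosen. RNA was sequenced from 9 cultures in 3 groups of 3 biological replicates, and the question of the study was how alleles of PCF11 alter gene expression. PCF11 encodes a subunit of the factor that cleaves pre-mRNA at its end and releases RNA polymerase II. The Pcf11-13 strain carried the pcf11-13 allele on its plasmid. The Pcf11-DNL strain carried an allele that the labels write as pcf11-deltaN-link, with V5 and MYC tags. The WT strain carried the normal PCF11, also with V5 and MYC tags, whereas the Pcf11-13 genotype names no tag. All 3 strains were haploid w303 cells of mating type alpha and carried the mutations his3-11,15, ade2-1, ura3-1 and trp1-delta, with a leu2 allele whose number the Pcf11-DNL label writes unlike the others. In every strain, WT included, TRP1 had replaced the chromosomal PCF11, and PCF11 came from a plasmid with LEU2. The labels describe that plasmid as low copy and centromeric, but the genotype names it pRS325, and these descriptions disagree, so its copy number is not settled here. Cultures grew at 30 °C in YPAD, a rich glucose medium, and all 9 carry the treatment label glucose.

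The processome is the large particle that forms on the nascent ribosomal RNA precursor in the nucleolus. Its proteins fold the precursor, guide the U3 small nucleolar RNA to it and prepare the cuts that free the small subunit RNA. The genes for these proteins are a classic coordinately controlled set in yeast, known to follow nutrient and growth signals. Many have a PAC element (named after RNA polymerases A and C, and bound by the repressors Dot6 and Tod6) and an RRPE element (ribosomal RNA processing element, bound by the repressor Stb3) in their promoters.

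Promoter windows of 3 genes are shown first because they hold 1, several or no motifs of each kind. The log2 fold changes of MPP10 (-0.55) and EMG1 (-0.59) in Pcf11-13 against WT lay inside the quartiles of the set, given below. Each window runs from 250 bases before the start codon through the first 50 bases of the coding sequence, 300 bases in all, and is read in the direction of transcription from the RefSeq genome of build R64, the assembly also called sacCer3. Capitals mark the PAC core (GATGAG, or CTCATC where it lies on the other strand) and the RRPE core (AAAATTTT, which reads the same on both strands). MPP10 (YJR002W), at chrX:438615-438914 on the plus strand, has 1 core of each kind. LCP5 (YER127W), at chrV:414231-414530 on the plus strand, had one of the smallest changes and has 2 cores of each kind. EMG1 (YLR186W), at chrXII:523382-523681 on the plus strand, has neither core.
MPP10: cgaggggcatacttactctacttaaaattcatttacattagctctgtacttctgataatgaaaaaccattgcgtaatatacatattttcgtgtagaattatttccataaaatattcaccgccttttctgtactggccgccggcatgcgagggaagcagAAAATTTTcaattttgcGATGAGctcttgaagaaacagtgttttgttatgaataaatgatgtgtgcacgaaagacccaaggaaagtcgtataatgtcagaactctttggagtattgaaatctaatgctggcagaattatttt
LCP5: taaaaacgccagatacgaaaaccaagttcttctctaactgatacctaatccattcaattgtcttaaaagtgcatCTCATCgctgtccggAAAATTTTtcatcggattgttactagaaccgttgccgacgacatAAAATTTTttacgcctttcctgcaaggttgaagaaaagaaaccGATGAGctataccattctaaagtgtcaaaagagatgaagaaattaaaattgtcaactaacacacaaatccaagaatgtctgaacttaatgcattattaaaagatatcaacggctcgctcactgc
EMG1: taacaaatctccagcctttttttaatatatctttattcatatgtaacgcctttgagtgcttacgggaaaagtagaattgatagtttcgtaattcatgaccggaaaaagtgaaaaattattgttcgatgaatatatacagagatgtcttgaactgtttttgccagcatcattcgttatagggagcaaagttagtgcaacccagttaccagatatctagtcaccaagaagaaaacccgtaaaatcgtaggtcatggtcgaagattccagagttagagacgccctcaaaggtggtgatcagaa
In MPP10 the PAC core begins 75 and the RRPE core 92 bases before the start codon. In LCP5 the PAC cores begin 176 and 74 bases and the RRPE cores 161 and 117 bases before it.

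Library totals lay between 11372819 and 15906466 expected counts, and 5646 genes passed the filter on low counts, all 47 processome genes among them, with 567 to 21927 counts per library. PCF11 itself stood at 613 to 677 CPM in Pcf11-13, at 64.5 to 69.3 CPM in Pcf11-DNL and at 81.4 to 87.5 CPM in WT (CPM, a gene's count as a share of the scaled library total). LEU2, the plasmid marker, stood at 117 to 125 CPM in Pcf11-13, at 213 to 224 CPM in Pcf11-DNL and at 191 to 204 CPM in WT, so it did not follow PCF11. The copy number of the plasmid was not measured, and the part of the PCF11 level in the results on Pcf11-13 was not tested. The alpha-cell genes MF(ALPHA)1 and STE3 were detected in every library, at no less than 1919 and 198 TPM (a level scaled by coding length), and the a-cell genes STE2, STE6 and BAR1 at no more than 12.3 TPM. WT replicate 1 was the highest WT library for 40 of the 47 processome genes and for 44% of all genes tested. Pcf11-13 replicate 1 was the highest of its group for 44 of them (37.5% of all genes), and so was Pcf11-DNL replicate 2 (36.3% of all genes). Results are therefore also given without WT replicate 1.

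In Pcf11-13, the transcripts of all 47 processome genes fell relative to WT. Called lower here means a negative log2 fold change with an adjusted p under 0.05 in edgeR's quasi-likelihood test (p-values adjusted over all genes tested), and 30.9% of all genes were called lower by this rule, with 35.2% called higher. The median log2 fold change of the set was -0.51, with quartiles of -0.60 and -0.41 and a range from -0.79 for NOC4 to -0.24 for UTP25, beside a median of 0.03 over all genes tested. In 26 of the 47 (55.3%) the log2 fold change was below -0.5, which held for 7.21% of all genes. Every processome gene had its 3 Pcf11-13 libraries below its 3 WT libraries, a pattern found in 32.7% of all genes. Without WT replicate 1, all 47 were still called lower, beside 30.2% of all genes, and the median was -0.48. In bulk RNA from a culture, fewer cells that express a gene and less RNA per cell cannot be told apart.

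The level of the set as a whole showed the same separation. Summed over the 47 genes, it was 12979, 11699.8 and 12023 CPM in the Pcf11-13 libraries, 16233, 16983 and 16093 CPM in the Pcf11-DNL libraries, and 18860.0, 16934 and 17171 CPM in the WT libraries. The means were 12234 ± 665 CPM in Pcf11-13, 16437 ± 478 CPM in Pcf11-DNL and 17655 ± 1050.3 CPM in WT (SD, n = 3 each), so the Pcf11-13 libraries lay below all others, while Pcf11-DNL replicate 2 reached into the range of WT. The scaling bears on the size of this gap. Library totals in place of TMM, edgeR's scaling by a trimmed mean, give the set 1.33% ± 0.0639 of all counts in Pcf11-13, 1.60% ± 0.0429 in Pcf11-DNL and 1.66% ± 0.0562 in WT. With library totals the median over all genes of Pcf11-13 against WT moves to 0.25 and that of the set to -0.30, which is a difference of -0.54 between set and all genes, against -0.55 with TMM. In that scaling 38 of the 47 genes were called lower, all 47 log2 fold changes stayed below 0, and 15.2% of all genes were called lower with 59.7% higher.

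**Figure D1:**
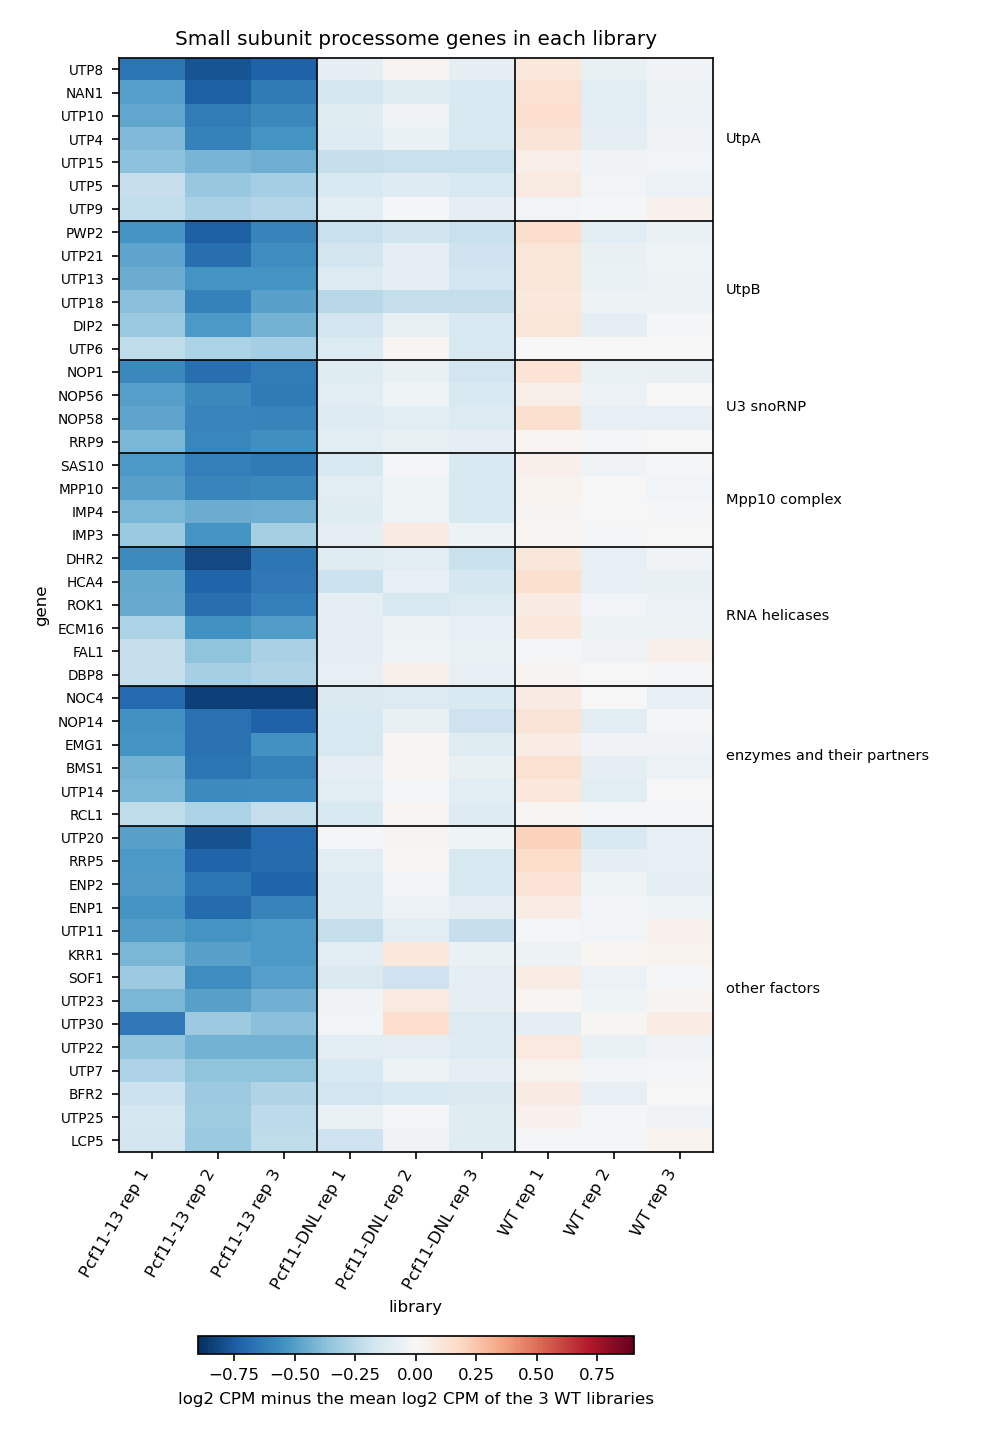
Level of each of the 47 processome genes in each of the 9 libraries, as log2 CPM minus the mean log2 CPM of the WT libraries (colour), with genes in rows by module and libraries in columns by group. All 47 rows are blue in the Pcf11-13 columns, whose medians are -0.42, -0.58 and -0.54, while the Pcf11-DNL columns have medians of -0.11, -0.05 and -0.13 and WT replicate 1 one of 0.08.

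UtpA is the subcomplex that binds the leading end of the precursor RNA early, and its 7 genes (UTP4, UTP5, UTP8, UTP9, UTP10, UTP15 and NAN1) spread widely in Pcf11-13. Their median log2 fold change against WT was -0.51, from -0.72 for UTP8 to -0.26 for UTP9, and all 7 were called lower. UTP8 (YGR128C), which also takes part in nuclear export of tRNA, had 219.6, 202 and 209 CPM in Pcf11-13, 327, 353 and 327 CPM in Pcf11-DNL, and 371, 332 and 339 CPM in WT. The 3 Pcf11-13 libraries of UTP8 lay below all others, and those of Pcf11-DNL and WT overlapped. Its log2 fold change was -0.72 ± 0.05 (SE, adjusted p 8.04e-09) in Pcf11-13 against WT, which is a fall of 39.4%, and -0.05 ± 0.05 (adjusted p 0.566) in Pcf11-DNL against WT. UTP5 (YDR398W) stood at 345, 315 and 322 CPM in Pcf11-13, at 362, 368 and 363 CPM in Pcf11-DNL and at 421, 392 and 384 CPM in WT, with a log2 fold change of -0.28 in Pcf11-13 against WT (adjusted p 6.82e-05). The groups of UTP5 did not overlap and Pcf11-DNL lay between the others.

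UtpB, a chaperone-like subcomplex that joins after UtpA, is encoded by PWP2, UTP6, DIP2, UTP13, UTP18 and UTP21. All 6 genes were called lower in Pcf11-13 against WT, with a median log2 fold change of -0.50 and a range from -0.62 for PWP2 to -0.27 for UTP6. PWP2 (YCR057C), a scaffold of UtpB, had 345, 300.1 and 328 CPM in Pcf11-13, 434, 440.2 and 434 CPM in Pcf11-DNL, and 555, 467 and 478 CPM in WT. The groups of PWP2 did not overlap, and the log2 fold change of Pcf11-13 against WT was -0.62 ± 0.06 (adjusted p 3.04e-07).

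The U3 snoRNP is the particle of U3 RNA with its core proteins. The 4 genes of this particle that are in the set changed by similar amounts, from -0.63 to -0.51 on the log2 scale in Pcf11-13 against WT. NOP1 (YDL014W), the methyltransferase known as fibrillarin in other eukaryotes, is the most abundant transcript of the set. It had 1004, 939 and 972 CPM in Pcf11-13, 1397, 1433 and 1333 CPM in Pcf11-DNL, and 1638, 1446 and 1437 CPM in WT, so no library of one group reached into another. Its log2 fold change was -0.63 ± 0.05 (adjusted p 2.92e-08). NOP56 and NOP58, the paired core proteins of the box C/D class of snoRNPs to which U3 belongs, had log2 fold changes of -0.57 ± 0.05 (adjusted p 3.37e-08) and -0.56 ± 0.06 (adjusted p 2.74e-07). NOP56 (YLR197W) had 710.4, 670.1 and 643 CPM in Pcf11-13, 931, 972 and 909.8 CPM in Pcf11-DNL, and 1038, 963 and 999 CPM in WT. NOP58 (YOR310C) had 761, 700.4 and 699 CPM in Pcf11-13, 977, 988 and 971 CPM in Pcf11-DNL, and 1169, 1006 and 1007 CPM in WT. In both genes the Pcf11-13 libraries stood well below the rest, and the Pcf11-DNL and WT libraries overlapped in NOP56 alone. RRP9, the U3-specific protein, was at -0.51 ± 0.05 (adjusted p 1.13e-07).

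The Mpp10 complex helps U3 pair with the precursor RNA. MPP10, its scaffold, had 269.6, 251 and 254 CPM in Pcf11-13, 354, 369 and 344 CPM in Pcf11-DNL, and 387, 378 and 372 CPM in WT, with no overlap between groups and a log2 fold change of -0.55 ± 0.04 against WT (adjusted p 2.56e-08). IMP4 (YNL075W) had 112, 109 and 109.8 CPM in Pcf11-13, 138, 145 and 135 CPM in Pcf11-DNL, and 151, 148 and 147 CPM in WT, and a log2 fold change of -0.43 ± 0.04 (adjusted p 2.5e-07). IMP3 (YHR148W) had 67.4, 58.5 and 69.1 CPM in Pcf11-13, 79.9, 89.3 and 82.4 CPM in Pcf11-DNL, and 85.8, 84.0 and 85.1 CPM in WT, and a log2 fold change of -0.39 ± 0.06 (adjusted p 3.37e-05). For IMP3 the Pcf11-DNL libraries lay on both sides of WT, and the Pcf11-13 libraries lay below both groups. SAS10, which binds Mpp10, was at -0.59 ± 0.05 (adjusted p 4.28e-08).

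The 6 RNA helicase genes, whose products unwind or release RNA during assembly, were also all called lower, with a median log2 fold change of -0.51 in Pcf11-13 against WT. DHR2 (YKL078W) was the lowest of them, with 131, 111 and 124 CPM in Pcf11-13, 179.9, 182 and 169 CPM in Pcf11-DNL, and 209, 185 and 190.1 CPM in WT. Its groups did not overlap and its log2 fold change was -0.68 ± 0.06 (adjusted p 8.47e-08). HCA4 stood at -0.60, ROK1 at -0.58 and ECM16 at -0.44, while FAL1 and DBP8 stood at -0.29 and -0.25.

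Among the enzymes and their partners, 6 genes in all, the median log2 fold change of Pcf11-13 against WT was -0.57 and each gene was called lower. NOC4 (YPR144C), which acts as a pair with Nop14, had 164, 149 and 149 CPM in Pcf11-13, 243, 245 and 242 CPM in Pcf11-DNL, and 281, 266 and 253 CPM in WT. The 3 groups were fully separated, and the fall of 42.2% in Pcf11-13 was the largest of the 47 (log2 fold change -0.79 ± 0.05, adjusted p 1.76e-09). NOP14 (YDL148C) itself had 215, 197 and 189 CPM in Pcf11-13, 285, 299.5 and 276 CPM in Pcf11-DNL, and 339.7, 293 and 310.2 CPM in WT, with a log2 fold change of -0.65 ± 0.06 (adjusted p 9.54e-08). EMG1, a methyltransferase that binds Nop14, was at -0.59 ± 0.05. BMS1, a GTPase, was at -0.56 ± 0.06, whereas RCL1, the protein that Bms1 brings to the particle, was at -0.25 ± 0.05 (adjusted p 2.07e-04). RCL1 (YOL010W) had 134, 129 and 135 CPM in Pcf11-13, 143, 159 and 145 CPM in Pcf11-DNL, and 159, 156 and 156 CPM in WT, with the Pcf11-13 libraries below all others and overlap between Pcf11-DNL and WT. The difference between BMS1 and RCL1 was not tested.

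The 14 other factors included the large scaffold genes UTP20 and RRP5 at one end and LCP5 and UTP25 at the other. UTP20 (YBL004W) had 360.1, 294 and 312 CPM in Pcf11-13, 502, 514 and 492 CPM in Pcf11-DNL, and 585, 460.1 and 482 CPM in WT, where replicate 1 stood above the rest. Its log2 fold change was -0.66 ± 0.08 (adjusted p 2.5e-06) in Pcf11-13 against WT. RRP5 (YMR229C), an RNA-binding protein needed for both ribosomal subunits, had 634, 550.5 and 561 CPM in Pcf11-13, 849, 913 and 821 CPM in Pcf11-DNL, and 1016, 851 and 862 CPM in WT, and a log2 fold change of -0.64 ± 0.07 (adjusted p 5.6e-07). In both scaffold genes the Pcf11-DNL and WT libraries overlapped and the Pcf11-13 libraries lay below them. LCP5 had 156, 139 and 149.6 CPM in Pcf11-13, 154, 171 and 162 CPM in Pcf11-DNL, and 173, 173 and 179 CPM in WT, and a log2 fold change of -0.24 ± 0.05 (adjusted p 4.85e-04). UTP25 (YIL091C), which has a helicase-like fold, had 214, 191 and 202 CPM in Pcf11-13, 229, 235 and 221 CPM in Pcf11-DNL, and 245, 237 and 233 CPM in WT, and a log2 fold change of -0.24 ± 0.05 (adjusted p 3.56e-04). These were the smallest changes of the set, and they were 2 of the 9 genes (with UTP5, UTP6, UTP9, DBP8, FAL1, RCL1 and BFR2) that were not called lower when libraries were scaled by their totals.

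**Figure D2:**
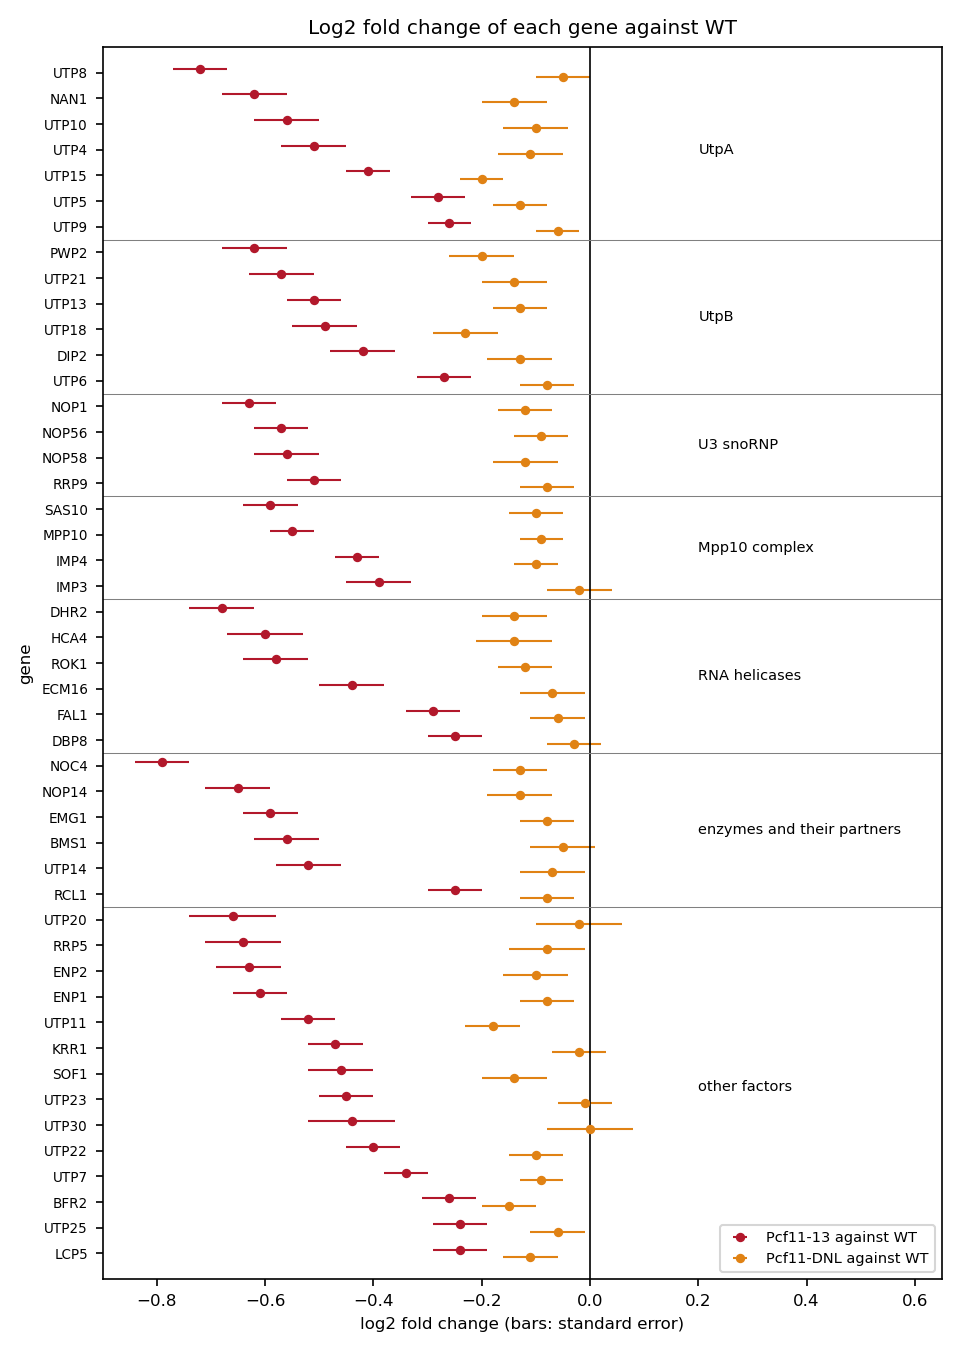
Log2 fold change of each of the 47 genes against WT in Pcf11-13 (red) and Pcf11-DNL (orange), with bars for the standard error and genes grouped by module. The Pcf11-13 points run from -0.79 to -0.24 and the Pcf11-DNL points from -0.23 to 0.00.

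In Pcf11-DNL, 4 of the 47 processome genes were called lower than in WT, against 4.30% of all genes, and none was called higher by edgeR, against 8.73% of all genes. At an unadjusted p under 0.05 edgeR gave 20 lower and 0 higher, beside 12.7% of all genes lower and 16.1% higher. The DESeq2 Wald test gave 6 lower and 0 higher at its adjusted p, beside 5.30% of all genes lower and 7.12% higher. By limma-voom 3 were lower and 0 higher, beside 4.09% of all genes lower and 8.29% higher. The median log2 fold change was -0.10, from -0.23 for UTP18 to 0.00 for UTP30, beside 0.00 over all genes. Of the 47 values 46 lay below 0, beside 2813 of all 5646 genes tested. Between libraries of the same number, the median log2 ratio was -0.20 in replicate 1, -0.01 in replicate 2 and -0.10 in replicate 3. In these, 46, 26 and 46 of the 47 genes lay below 0. With library totals the median was -0.04, 39 values lay below 0, 2 genes were called lower, and 2.20% of all genes were called lower with 12.9% higher. In 24 genes the 3 Pcf11-DNL libraries lay below the 3 WT libraries, which was found in 15.8% of all genes. Without WT replicate 1 the median was -0.07 and 3 genes were called lower, beside 3.55% of all genes.

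The 4 genes called lower in Pcf11-DNL were UTP15 of UtpA, UTP18 and PWP2 of UtpB, and UTP11, a factor of the assembling particle. UTP15 (YMR093W) had 169, 163 and 161 CPM in Pcf11-13, 189, 190.1 and 190.1 CPM in Pcf11-DNL, and 227, 213 and 215 CPM in WT. UTP18 (YJL069C) had 261, 222 and 241 CPM in Pcf11-13, 285, 292 and 291 CPM in Pcf11-DNL, and 361, 327 and 328 CPM in WT. UTP11 (YKL099C) had 62.0, 60.7 and 61.3 CPM in Pcf11-13, 75.6, 82.0 and 76.2 CPM in Pcf11-DNL, and 87.0, 86.6 and 90.2 CPM in WT. In all 3 genes the groups were separate, with Pcf11-DNL between Pcf11-13 and WT, as in PWP2 above. The log2 fold changes of Pcf11-DNL against WT were -0.20 ± 0.04 for UTP15 (adjusted p 0.00453), -0.23 ± 0.06 for UTP18 (adjusted p 0.0139), -0.18 ± 0.05 for UTP11 (adjusted p 0.0175) and -0.20 ± 0.06 for PWP2 (adjusted p 0.0478). The call of UTP15 held when any single library was left out. UTP18 lost its call without Pcf11-DNL replicate 1 (adjusted p 0.0606). UTP11 lost it without Pcf11-DNL replicate 1, Pcf11-DNL replicate 3 or WT replicate 3 (adjusted p 0.0803, 0.0846 and 0.0641). PWP2 lost it without WT replicate 1 (adjusted p 0.122) and without Pcf11-DNL replicate 1, 2 or 3 (adjusted p 0.125, 0.105 and 0.13). BFR2, at -0.15 ± 0.05 (adjusted p 0.0534), gained a call without WT replicate 2 (adjusted p 0.0357). As a result 1 gene was called lower without Pcf11-DNL replicate 1, beside 2.53% of all genes. Without Pcf11-DNL replicate 3 it was 2 genes, beside 2.28% of all genes.

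Between the mutants, all 47 processome genes were called lower in Pcf11-13 than in Pcf11-DNL, where 29.5% of all genes were called lower and 30.9% higher. The median log2 fold change was -0.43, from -0.68 for UTP8 to -0.12 for BFR2, beside 0.02 over all genes. In 46 genes the Pcf11-13 libraries lay below all Pcf11-DNL libraries, a pattern of 32.9% of all genes, and LCP5 was the exception. UTP8, NOC4 and UTP20 differed most, with log2 fold changes of -0.68 ± 0.05 (adjusted p 2.73e-08), -0.66 ± 0.05 (adjusted p 2.05e-08) and -0.64 ± 0.08 (adjusted p 4.64e-06). The smallest differences were those of BFR2 (-0.12 ± 0.05, adjusted p 0.0462), LCP5 (-0.13 ± 0.05, adjusted p 0.0303) and UTP5 (-0.16 ± 0.05, adjusted p 0.0105). BFR2 (YDR299W), which works with Enp2, had 185, 168 and 175 CPM in Pcf11-13, 187, 192 and 193 CPM in Pcf11-DNL, and 222, 201 and 211 CPM in WT, so here Pcf11-DNL was nearer to Pcf11-13 than to WT. These 3 calls rested on single libraries: without Pcf11-13 replicate 2 none of them was made (adjusted p 0.202, 0.168 and 0.0584). BFR2 also lost its call without Pcf11-13 replicate 3 or Pcf11-DNL replicate 1, 2 or 3 (adjusted p 0.0996, 0.0627, 0.102 and 0.0929). LCP5 lost it without Pcf11-13 replicate 3 or Pcf11-DNL replicate 2 or 3 (adjusted p 0.0535, 0.14 and 0.0537). With library totals the 3 genes turned to log2 fold changes of 0.05, 0.03 and 0.01, and 35 of the 47 were called lower, beside 15.4% of all genes lower and 52.8% higher.

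**Figure D3:**
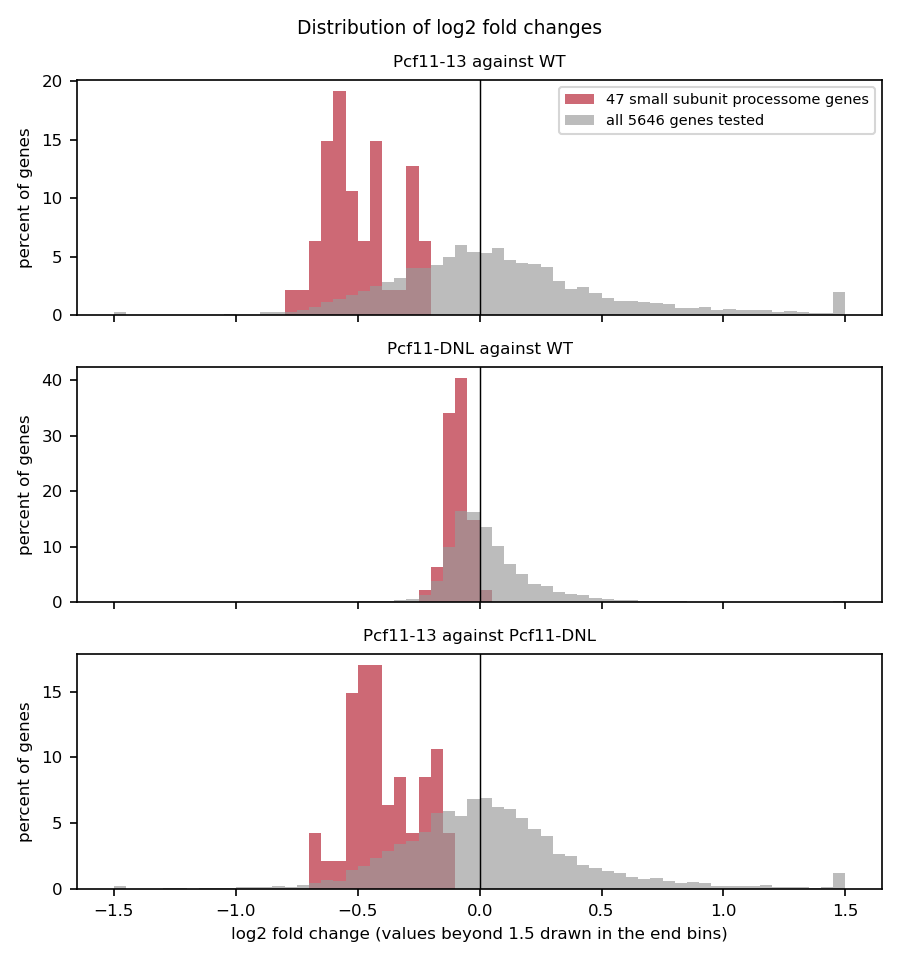
Distribution of log2 fold changes of the 47 processome genes (red) and of all 5646 genes tested (grey) in the 3 comparisons, as the percent of genes in each bin. The processome genes have medians of -0.51, -0.10 and -0.43, and all genes have medians of 0.03, 0.00 and 0.02.

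Levels can be compared between genes only per length. On the TPM scale the WT levels of the set ran from 57.1 ± 2.05 for FAL1 to 1525 ± 103 for NOP1 (SD, n = 3), with a median of 162 TPM beside 43.6 TPM over all genes tested. NOP58 at 688 ± 55.6 and NOP56 at 657 ± 22.6 followed NOP1, and the next was EMG1 at 278 ± 9.66 TPM. All other members stood below EMG1. The 7 genes of UtpA lay between 133 (UTP10) and 206 TPM (UTP5) and the 6 of UtpB between 125 (UTP6) and 189 TPM (UTP18). UTP20, whose coding sequence of 7482 bases is the longest of the set, stood at 67.7 ± 8.42 TPM. Across the 47 genes the log2 fold change of Pcf11-13 against WT had a Pearson r of -0.26 and a Spearman rho of -0.27 with the log2 WT level and of -0.33 and -0.34 with the log2 coding length. The WT level also enters the fold change, so noise in the WT libraries alone can give a negative correlation between them. All these values describe genes measured in the same libraries. The genes lie on 14 chromosomes, 28 on the plus and 19 on the minus strand, and none of them has an intron.

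The fall in Pcf11-13 extended to other ribosome assembly genes. Of 33 other small subunit assembly genes, 31 were called lower than in WT and 1 higher, with a median log2 fold change of -0.36. The line between these 33 and the 47 is that of the lists used, so the 33 can include further processome genes. The shares over all genes were 30.9% lower and 35.2% higher. FAF1 (-0.62 ± 0.05, adjusted p 2.84e-08) and TSR1, a GTPase-like factor (-0.58 ± 0.05, adjusted p 1.44e-07), were lower. The exception was BUD22, a factor of small subunit maturation, at 471 ± 21.3 CPM in Pcf11-13 and 233 ± 13.6 CPM in WT (log2 fold change 1.02 ± 0.05, adjusted p 6.18e-11). All 50 large subunit assembly genes were called lower (median -0.49), among them the helicase gene HAS1 (-0.78 ± 0.05, adjusted p 3.93e-09), NOC3, which encodes a relative of Noc4 (-0.76 ± 0.05, adjusted p 2.86e-09), and NOC2, which encodes the partner of Noc3 (-0.66 ± 0.05, adjusted p 2.62e-08). The 7 RNA polymerase I subunit genes were all called lower (median -0.42), with RPA135 at -0.62 ± 0.06, RPA49 at -0.50 ± 0.05 and RPA14 at -0.42 ± 0.06. Of 56 small subunit ribosomal protein genes, 53 were called lower and 1 higher (median -0.46). RPS14A was at -0.89 ± 0.04, RPS25A at -0.83 ± 0.04 and RPS8A at -0.79 ± 0.04, and the 1 higher was RPS14B at 0.52. With library totals the calls lower and higher were 17 and 3 of the 33 other small subunit genes, 46 and 0 of the 50, 7 and 0 of the 7, and 47 and 1 of the 56. Of all genes, 15.2% were then called lower and 59.7% higher.

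In Pcf11-DNL against WT, the medians of those lists were -0.03 for other small subunit assembly, -0.10 for large subunit assembly, -0.05 for RNA polymerase I and -0.04 for small subunit ribosomal proteins. Of the 50 large subunit assembly genes 4 were called lower, beside 4.30% of all genes. Among them were NOG2 at -0.33 ± 0.05 (adjusted p 3.99e-04), YTM1 at -0.25 ± 0.05 (adjusted p 0.00222) and RSA4 at -0.19 ± 0.04 (adjusted p 0.0101). Of the 33 other small subunit genes edgeR called 0, with 3 lower at an unadjusted p under 0.05 (12.7% of all genes) and 0 called by the DESeq2 Wald test or limma-voom. Of the 7 RNA polymerase I genes edgeR called 0, with 1 lower at an unadjusted p under 0.05, where 12.7% of all genes were lower, and 0 by the other tools. Of the 56 ribosomal protein genes 4 were called lower and 1 higher, beside 4.30% and 8.73% of all genes. The last was RPS14B, at 419 ± 6.1 CPM in Pcf11-DNL and 267 ± 5.03 CPM in WT (log2 fold change 0.65 ± 0.04, adjusted p 2.36e-08), while its near-identical copy RPS14A was at -0.32 ± 0.04 (adjusted p 2.75e-05). How reads shared by the copies were divided rests on the authors' estimation.

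Transcripts of regulators of these genes were examined as well. DOT6, one of the PAC-binding repressors, rose in Pcf11-13 to 158 ± 2.87 CPM, against 125 ± 4.66 CPM in WT (log2 fold change 0.34 ± 0.04, adjusted p 3.69e-06). STB3, the RRPE-binding repressor, had 58.8 ± 0.528 CPM in Pcf11-13 and 52.6 ± 1.6 CPM in WT (0.16 ± 0.05, adjusted p 0.0105), and IFH1, a co-activator of ribosomal protein genes, was at 0.26 ± 0.05 (adjusted p 2.58e-04). TOD6, the other PAC-binding repressor, was at -0.23 ± 0.05 (adjusted p 7.39e-04), SCH9, a kinase that acts on these repressors, at -0.27 ± 0.06 (adjusted p 7.43e-04), and FHL1, the partner of Ifh1, at -0.17 ± 0.05 (adjusted p 0.00732). The activator gene SFP1 was at -0.10 ± 0.05 (adjusted p 0.129). With library totals DOT6, STB3 and IFH1 were again called higher, at 0.55, 0.37 and 0.48, whereas TOD6 and SCH9 moved to -0.02 and -0.06 and were not called, FHL1 turned to 0.04 and SFP1 to 0.12 (adjusted p 0.0431). DOT6 was also higher in Pcf11-13 than in Pcf11-DNL (0.42 ± 0.04, adjusted p 6.49e-07), as were STB3 (0.29 ± 0.05, adjusted p 1.18e-04) and IFH1 (0.20 ± 0.05, adjusted p 0.00255). TOD6 (-0.17 ± 0.05, adjusted p 0.00838) and FHL1 (-0.14 ± 0.05, adjusted p 0.0225) were lower than in Pcf11-DNL, but with library totals they moved to -0.01 and 0.02 and were not called. SCH9 and SFP1 were at -0.09 each (adjusted p 0.207 and 0.159), and at 0.07 each with library totals. In Pcf11-DNL against WT edgeR called 0 of the 7 regulators, with 2 lower at an unadjusted p under 0.05 (12.7% of all genes), 1 lower by the DESeq2 Wald test (5.30% of all genes) and 0 by limma-voom.

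The promoters of the set share the motifs printed above. A PAC core was present in 43 of the 47 windows (91.5%), against 1205 of 5881 windows of all matched protein-coding genes (20.5%). An RRPE core was present in 36 (76.6%), against 532 (9.05%), and both in 35 (74.5%), against 262 (4.46%). No PAC core shared bases with an RRPE core in the 35 windows. PAC cores began at a median of 103 bases before the start codon (quartiles 82 and 127), against 114 in all windows. Of the 68 hits, 92.6% began between 50 and 200 bases before the start codon, against 60.5% of the 1424 hits in all windows. RRPE cores began at a median of 133 bases before the start codon (quartiles 116 and 149.5), against 136 in all windows. In 26 of the 35 genes with both (74.3%), every RRPE core lay upstream of every PAC core, against 162 of 262 (61.8%) in all windows. The median distance to the next PAC core was 21 bases, against 24 in all windows. That distance was 20 bases in other small subunit assembly, 19 in large subunit assembly and 21 in RNA polymerase I windows. PAC cores stood in the direction of the gene in 44 hits and reversed in 24, and 18 genes had more than 1.

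Within the set, genes with and without the motifs fell. The median log2 fold change of Pcf11-13 against WT was -0.55 in the 35 genes with both motifs and -0.50 in the 8 with PAC alone. It was -0.41 in the 1 gene with RRPE alone (UTP15) and -0.44 in the 3 with neither (EMG1, UTP22 and UTP30). No test was made between them. Single genes, picked with their values known, differed within these groups. NOC4, with cores of both kinds, was at -0.79, and LCP5, with 2 cores of each kind, was at -0.24. The bases before LCP5 also lie before NSA2, a divergent large subunit assembly gene at -0.41, with 301 bases between the genes. Which of these genes each core in the LCP5 window serves was not tested. DHR2, with 3 PAC cores and no RRPE core, was at -0.68. Whether the motifs bear on the fall was not tested. Of the other lists, PAC cores stood in 90.9% of other small subunit assembly windows, 92.0% of large subunit assembly windows, 85.7% of RNA polymerase I windows and 12.5% of small subunit ribosomal protein windows. RRPE cores stood, in the same order of lists, in 72.7%, 78%, 85.7% and 5.36% of the windows. Both motifs stood in 66.7%, 70%, 85.7% and 0% of them. The median log2 fold changes of these lists in Pcf11-13 against WT, given above, were -0.36, -0.49, -0.42 and -0.46. A motif match describes letters in a window and does not show that a factor binds there.

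**Figure D4:**
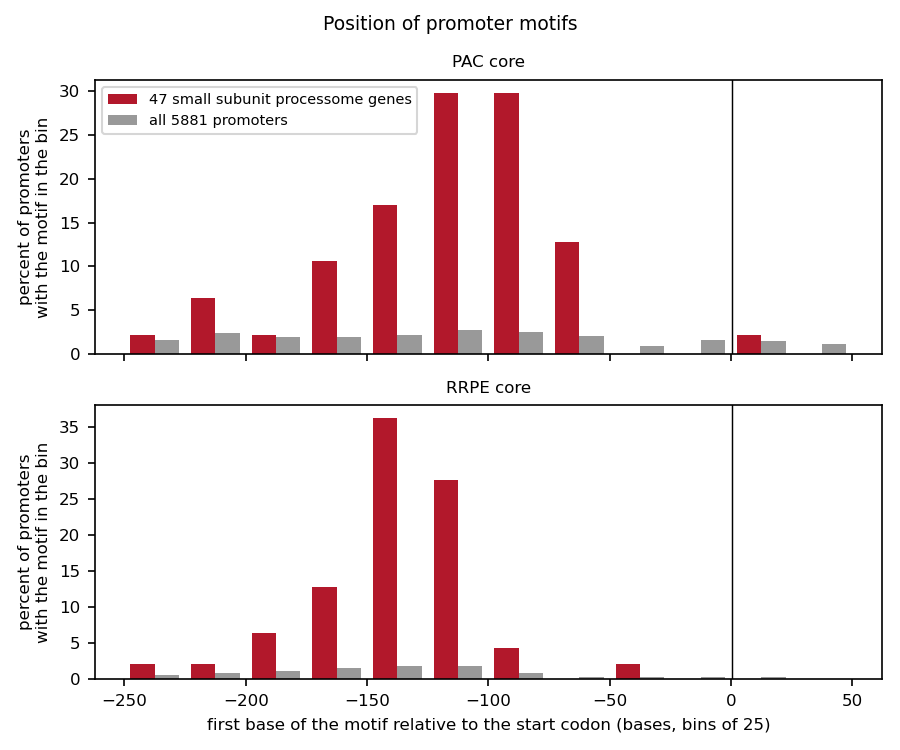
Percent of promoter windows with a PAC core (upper panel) or an RRPE core (lower panel) that begins in each bin of 25 bases relative to the start codon, for the 47 processome genes (red) and all 5881 windows (grey). PAC hits of the set centre on a median of 103 bases and RRPE hits on a median of 133 bases before the start codon, and the highest grey bar is at 2.75%.

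Because Pcf11 acts at the ends of genes, the neighbours of the processome genes were described too. For 27 of the 47, the upstream neighbour lies on the same strand (tandem), and for 20 it is divergent. The median log2 fold change of Pcf11-13 against WT was -0.51 in the 27 and -0.52 in the 20. The 25 tested tandem upstream neighbours had a median of 0.01 (0.23 with library totals), with 9 called lower and 11 higher. The 19 tested divergent ones had a median of -0.14 (0.08 with library totals), with 9 lower and 3 higher. Among those lower were RPS18A (-0.51), RPS10B (-0.29) and NSA2 (-0.41), which belong to the lists described above. Of all genes, 30.9% were called lower and 35.2% higher in this comparison. The following examples were picked after their values were seen. THI4, a thiamine synthesis gene, rose by 1.71 on the log2 scale (adjusted p 2.39e-06), and ENP2, which begins 387 bases behind its coding sequence, was at -0.63. YSP3 rose by 1.13 and YEH1 by 1.03, ahead of UTP23 at -0.45 and SOF1 at -0.46. DCN1 fell by 0.87 ahead of DIP2 at -0.42. Of the downstream neighbours, the 25 tested convergent ones had a median of 0.18 (0.39 with library totals), with 4 lower and 11 higher, among them the serine synthesis gene SER3 opposite UTP7 at 1.29 (adjusted p 2.48e-12). The 21 tandem downstream ones had a median of 0.09 (0.30 with library totals), with 6 lower and 7 higher. Whether the counting used strand is not stated in the labels, so reads of overlapping transcripts from convergent genes cannot be told apart.

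**Figure D5:**
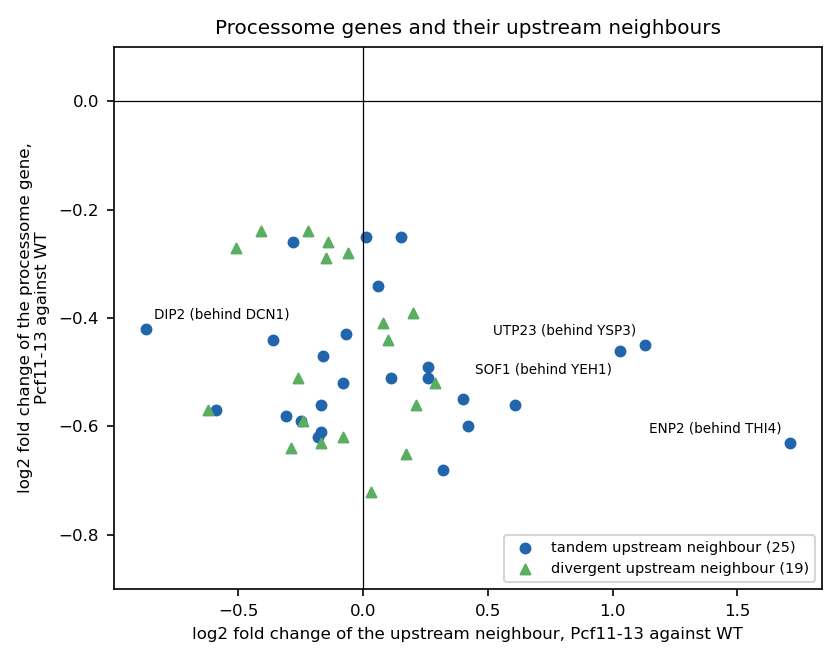
Log2 fold change of processome genes (vertical axis) against that of their upstream neighbours (horizontal axis) in Pcf11-13 against WT, for 25 tandem (circles) and 19 divergent (triangles) neighbours that were tested. The processome genes stay between -0.79 and -0.24 while the neighbours spread from -0.87 for DCN1 to 1.71 for THI4.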

How the data were processed

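Gene-level values of 9 RNA-seq libraries were analysed, 3 each of Pcf11-13, Pcf11-DNL and WT. The deposited values are expected counts (estimated read counts per gene, not normalized), per the submitters' processing notes, which name Trimmomatic 0.38, FastQC, STAR 2.6.1b, RSEM 1.3, DESeq2 1.26.0 and the build sacCer3. What each tool did, and with which settings, is not stated there. Per the labels' protocols, RNA was poly(A)-selected and read as pairs. Of the values, 10.8% were not whole. Names and positions come from the R64 annotation, which matched 5919 of 5928 genes. Promoter windows were read from the R64 genome, and some of them are not reported here.

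Expected counts were rounded and fitted in R 4.3.3 with edgeR 4.0.16: filterByExpr (minimum count 10), which removed 282 genes, TMM scaling, and 1 quasi-likelihood model of all 9 libraries with a term for the group. F tests were two-sided, with Benjamini-Hochberg adjustment over 5646 genes and a threshold of 0.05. Adjusted p-values in the text come from this test unless another tool is named. The biological coefficient of variation was 4.59%. A standard error is the absolute log2 fold change divided by the square root of F. TPM is per coding length. The pipeline was checked on simulated counts.

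The 47 genes and the lists were chosen with earlier results of these data known. Values per library are given for the 6 lowest and 3 highest log2 fold changes of Pcf11-13 against WT, the genes called in Pcf11-DNL, the 3 lowest and 3 highest between the mutants, and NOC4, NOP1, NOP56, NOP58, IMP3, IMP4 and MPP10. Of each list up to 3 genes with the smallest adjusted p are named, and every regulator. Tests on few libraries limit precision to the spread between them.

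Replicate numbers were examined as pairs through the correlation of residuals. In Pcf11-13 and WT, same-number libraries correlated at 0.42, 0.284 and 0.263, all above 0.1, so the numbers were taken to pair these groups from the data alone. The main fit held no term for these pairs, and results of fits with a replicate block are given below. Unlike-number libraries of these groups ran from -0.449 to 0.15, the last for Pcf11-13 replicate 3 with WT replicate 2, which also passed 0.1. Residuals were taken from the mean of each group of 3, so the correlations are not independent of each other. The labels give no reason for a pairing. In each pair all 47 genes were lower in Pcf11-13, with a median log2 ratio of -0.52. The results were recomputed with limma-voom (limma 3.58.1) and the Wald test of DESeq2 1.42.0, with 3 other scalings (library totals, size factors from DESeq2, and TMM computed without ribosome genes), with every gene above a count of 0 kept or only those averaging 5 CPM or more, with 6 libraries per fit, with a replicate block, and with each library left out in turn.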

Additional observations from a re-analysis of the deposited data

How the results depend on the processing

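With library totals in place of TMM, the median log2 fold change of the 47 genes was -0.30 in Pcf11-13 against WT and -0.27 in Pcf11-13 against Pcf11-DNL. In Pcf11-DNL against WT 2 genes were lower, beside 2.20% of all genes. The summed level was 13346 CPM in Pcf11-13 and 16589 CPM in WT. Between the mutants UTP5, BFR2 and LCP5 then reversed to 0.01, 0.05 and 0.03. The median over all genes moved to 0.25 in Pcf11-13 against WT and to 0.18 between the mutants, and the gap between the set and all genes was -0.54 and -0.45. The cause was not tested. Leaving out 1 library at a time gave 1 to 5 genes lower in Pcf11-DNL against WT, beside 2.28% to 4.12% of all genes, with medians from -0.13 to -0.07. In Pcf11-13 against WT it gave 47 throughout, beside 28.4% to 30.2% of all genes, with medians from -0.57 to -0.48. Between the mutants it gave 44 to 47, beside 25.9% to 28.1% of all genes, with medians from -0.47 to -0.39. With a replicate block, 47 genes were lower in Pcf11-13 against WT, beside 31.5% (9 libraries) and 32.8% (6 libraries) of all genes. Pcf11-DNL and WT libraries of the same number correlated at 0.0558, 0.304 and 0.0841, and those of the mutants at -0.112, 0.204 and -0.0936. Between the mutants, Pcf11-13 replicate 1 and Pcf11-DNL replicate 3 correlated at 0.315, above every same-number value there. The block gave 5 genes (9 libraries) and 3 genes (6 libraries) lower in Pcf11-DNL against WT, beside 5.67% and 2.92% of all genes. Between the mutants it gave 47 and 46, beside 30.1% of all genes in each fit, and LCP5 had an adjusted p of 0.0528 with 6 libraries. Of the values of single genes under all alternatives, 743 of 752 kept direction and call in Pcf11-13 against WT (9 lost the call), 734 of 752 in Pcf11-DNL against WT (12 lost and 6 gained it), and 728 of 752 between the mutants (24 lost it, the 3 that reversed among them). The lowest count of a processome gene in a library was 567.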
